A study of Mus musculus with 4 samples.

Results

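The 9 genes described here, Tph1, Calca, Penk, Nmur1, Vipr1, Vipr2, Calcrl, Ramp1 and Ramp3, encode parts of neuropeptide and neurotransmitter pathways that connect nerves with group 2 innate lymphoid cells (ILC2s). They were chosen by gene symbol with earlier results of these data known, and all 9 were present among the 27179 genes of the RNA-Seq table. ILC2s are tissue lymphocytes that lack antigen receptors and release type 2 cytokines. The source was the large intestine of WT C57BL/6 mice, from which ILC2s were sorted. The mice were aged 6 to 8 weeks according to the methods on mice, while the study design gives a wider range. Sorted cells grew for 5 days in medium with 4 cytokines at 10 ng/mL each, namely IL-33, IL-25, IL-7 and IL-2. They then received vehicle or 100 μM deoxycholic acid (DCA), a secondary bile acid that gut bacteria make from cholic acid, so both groups share the 4 cytokines and differ in DCA alone. The treatment lasted 16 hours according to the deposited design and 24 hours according to the methods. There were 2 vehicle libraries and 2 DCA libraries, and nothing in the labels says whether they came from separate mice or cultures, so every p-value below measures only the spread between libraries. The comparison asks which genes DCA changes in ILC2s that are already activated by cytokines in a dish, without nerves or other gut cells.

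The pathways work as follows. Neuromedin U from enteric neurons binds NMUR1, a receptor that couples to Gq and calcium and that marks ILC2s in many tissues. Vasoactive intestinal peptide (VIP) binds VIPR1 and VIPR2, which couple to Gs and raise cyclic AMP (cAMP). Calcitonin gene-related peptide (CGRP) is spliced from Calca transcripts, and its receptor is a pair of CALCRL with RAMP1. The pair of CALCRL with RAMP3 binds adrenomedullin. Penk encodes proenkephalin, the precursor of the opioid peptides called enkephalins. Tph1 encodes tryptophan hydroxylase 1, the rate-limiting enzyme of serotonin synthesis outside the brain. Neuromedin U is known to activate ILC2s, and CGRP is known to restrain their proliferation.

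Total counts were 26564059 to 35838342 in 3 libraries and 244165712 in DCA replicate 2, which detected 15592 genes against 12302 to 13419 in the others. Levels are given as CPM (counts divided by the TMM-scaled library size and expressed on a common scale), which corrects for depth and composition. A count of 0 allows up to 3 counts, or 0.0125 CPM in DCA replicate 2 and 0.0820 to 0.115 CPM in the others, and these limits cover counting error only. All 14 ILC2 markers were detected, among them Gata3, the transcription factor that defines the lineage, at 599 to 839 CPM. Of the 14, 7 did not overlap between treatments and 3 had an unadjusted p under 0.05, with Klrg1 and Il1rl1 lower with DCA (log2 fold changes of -0.74 and -0.60) and Il2ra higher (0.47). In bulk libraries, fewer cells of a type and less RNA per cell cannot be told apart. Averaging 1 CPM or more was required of a gene, and 11184 met this. Among them edgeR's quasi-likelihood test called 0 genes (0%) at an adjusted p under 0.05, and DESeq2, run as an alternative, called 126. At an unadjusted p under 0.05, edgeR gave 478 genes (4.27%), of which 284 (2.54%) were higher with DCA and 194 (1.73%) lower. The DCA libraries did not overlap the vehicle libraries in 3727 genes (33.3%).

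None of the 8 genes tested passed the adjusted threshold of edgeR's test at the filter of 1 CPM (DESeq2 called Ramp1, and edgeR without the filter called Calca), and Vipr1, with 0 counts in all 4 libraries, was not tested. Calca and Ramp1 were higher with DCA and Penk and Tph1 lower, at an unadjusted p under 0.05, so 4 of 8 passed that looser level where 4.27% of all genes did. The members were chosen with earlier results of these data known, so their shares beside all genes test nothing about the set. Ramp1 entered the test only through its DCA counts, and it had to differ. The same 4 genes were those whose treatments did not overlap, where 33.3% of all genes tested did not. Nmur1, Vipr2, Calcrl and Ramp3 overlapped between treatments. The adjusted p was 0.999 for each of the 8, and the exact permutation test gave p = 0.333 for each of the 4 without overlap, the smallest that 2 libraries against 2 allow, and p = 1 for the other 4. The median log2 fold change of the 8 was 0.05, beside 0.01 over all genes tested.

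**Figure D1:**
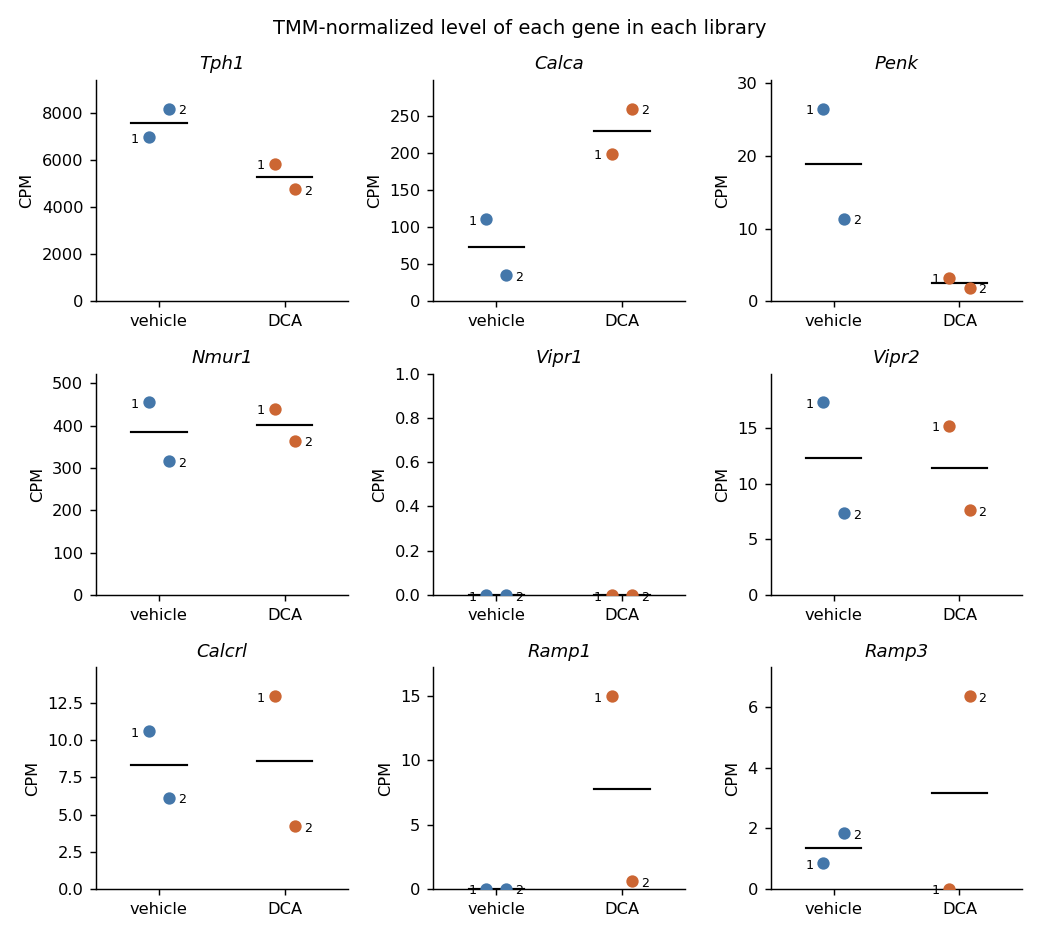
Each panel shows 1 gene, with the TMM-normalized level in CPM on a vertical axis that starts at 0, a point for each library (numbered by replicate) and a line at the mean of 2 libraries. The DCA points of Calca lie above both vehicle points, those of Penk and Tph1 lie below, and Ramp1 has counts in the DCA libraries alone.

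Serotonin synthesis was represented by one of the most abundant transcripts of these cells. Tph1 (Entrez 21990, chr7:46644641-46672537, minus strand, GRCm38.p6) gave 6962 and 8186 CPM under vehicle and 5840 and 4753 CPM under DCA. Both vehicle libraries were above both DCA libraries. It took 0.711% and 0.807% of all counts in the vehicle libraries and 0.588% and 0.469% in the DCA libraries, and its rank by CPM among all genes was 5 and 3 with vehicle and 5 and 11 with DCA. The means were 7574 ± 866 CPM (SD, n = 2) with vehicle and 5296 ± 768 CPM under DCA. The fitted log2 fold change was -0.52 (unadjusted p = 0.0353, edgeR), given with a standard error of 0.19. Here and below, that standard error is of the difference in mean log2(CPM + 1), not of edgeR's fitted change. The 95% interval from limma on log2(CPM + 1) ran from -1.11 to 0.07 and included no change. Here and below, limma takes part of a gene's variance from other genes. An interval can therefore be narrower than the gene's own libraries alone would give.

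The precursor of CGRP differed in the other direction. Calca (Entrez 12310, chr7:114625981-114636910, minus strand) gave 111 and 35.4 CPM under vehicle and 199 and 260 CPM under DCA. Each DCA library exceeded each vehicle library, but the vehicle libraries differed from each other by 3.13-fold, about as much as the treatments did. The means were 73.2 ± 53.4 CPM (SD, n = 2) with vehicle and 230 ± 43.4 CPM with DCA, 3.14-fold higher, with a log2 fold change of 1.65 and a standard error of 0.83 (unadjusted p = 0.0197, edgeR). Its limma interval ran from 0.74 to 2.94. Counts are per gene, so transcripts for CGRP and for calcitonin, which both come from Calca, are joined. Calcb, a second gene for CGRP, had 0 counts in all 4 libraries.

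Penk (Entrez 18619, chr4:4133536-4138815) had the largest fold difference of the members with counts in every library, and was lower with DCA. It gave 26.5 and 11.3 CPM under vehicle and 3.22 and 1.87 CPM under DCA. Each DCA library was below each vehicle library, and the vehicle libraries again differed from each other, replicate 1 being the higher one. The means were 18.9 ± 10.7 CPM (SD, n = 2) and 2.54 ± 0.949 CPM, which is 7.44-fold lower with DCA. The fitted log2 fold change was -2.90 (unadjusted p = 0.0130, edgeR). The difference in mean log2(CPM + 1) was -2.40 with a standard error of 0.64. The limma interval ran from -4.16 to -0.64.

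Calca and Penk, the 2 peptide precursors among the 9 genes, stood further apart in the DCA libraries. Per kilobase of transcript, Calca stood 6.09 and 4.55 times above Penk in the vehicle libraries and 90.2 and 203 times above it in the DCA libraries. Such a ratio within a library does not depend on how libraries are scaled. Tph1 stood 5.14 and 8.69 times above Nmur1 per kilobase with vehicle and 4.46 and 4.38 times above it with DCA, so that ratio was lower in each DCA library than in either vehicle library. The size of both ratios depends on the length used. Per kilobase of coding sequence, Tph1 stood 14.6 and 24.8 times above Nmur1 with vehicle and 12.7 and 12.5 times with DCA, and Calca stood 8.24 and 6.16 times above Penk with vehicle and 122 and 274 times with DCA.

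**Figure D2:**
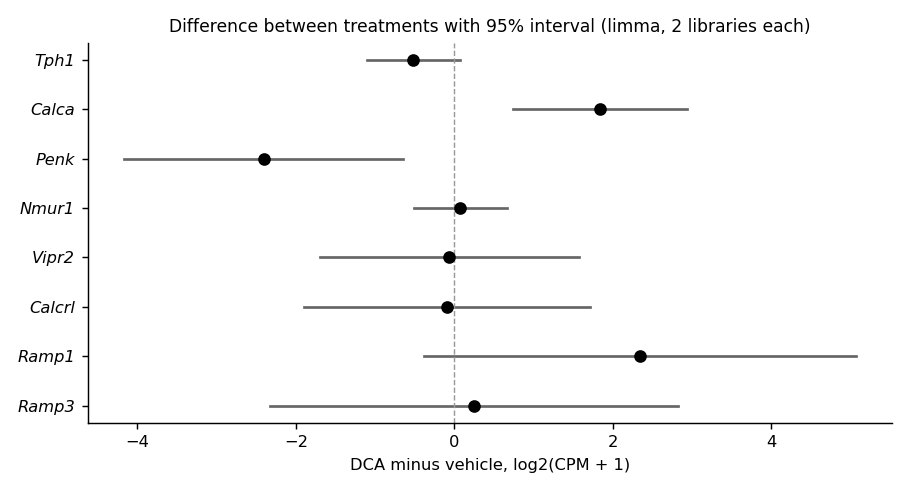
The horizontal axis is the difference in mean log2(CPM + 1), DCA minus vehicle, for the 8 genes tested, with the 95% interval from limma as a line. The interval of Calca lies above 0, from 0.74 to 2.94, that of Penk lies below 0, from -4.16 to -0.64, and the other 6 include 0. These intervals take part of each gene's variance from other genes, so they do not rest on its own libraries alone.

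The upstream sequences of Tph1 and Calca are shown because these are the most abundant enzyme and peptide precursor genes of the set, and because Gs-coupled receptors among the 9 genes act through cAMP, whose factor CREB binds the element that holds TGACG. The windows are the 250 bases before a RefSeq transcript start (GRCm38.p6, from RefSeq), read 5′ to 3′ on the minus strand, with the half-site TGACG or its reverse complement CGTCA in capitals. A window for Penk is missing from the table used. A second Tph1 start, further upstream in the gene, is given after the first. The Calca window, like the first Tph1 window, lies inside the annotated span of its gene. That span reaches to 114636910 for Calca, so its window precedes an inner start and not the outermost one.
Tph1, chr7:46667378-46667627: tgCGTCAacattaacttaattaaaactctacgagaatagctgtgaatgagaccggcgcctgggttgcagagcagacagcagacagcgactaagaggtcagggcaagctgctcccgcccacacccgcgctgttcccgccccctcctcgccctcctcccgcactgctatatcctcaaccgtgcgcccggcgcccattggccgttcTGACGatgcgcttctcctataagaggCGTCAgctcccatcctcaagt
Tph1, chr7:46672538-46672787: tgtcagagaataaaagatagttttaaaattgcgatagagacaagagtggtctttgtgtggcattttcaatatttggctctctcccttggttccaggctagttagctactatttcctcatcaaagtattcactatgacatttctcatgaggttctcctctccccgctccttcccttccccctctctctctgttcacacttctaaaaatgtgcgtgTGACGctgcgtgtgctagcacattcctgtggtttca
Calca, chr7:114636358-114636607: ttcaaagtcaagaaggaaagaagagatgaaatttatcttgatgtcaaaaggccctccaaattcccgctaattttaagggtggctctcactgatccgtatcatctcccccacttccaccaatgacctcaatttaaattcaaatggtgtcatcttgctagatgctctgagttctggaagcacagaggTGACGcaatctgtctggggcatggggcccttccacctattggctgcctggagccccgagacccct

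The first Tph1 window held 3 half-sites, whose first letters lie 248, 47 and 21 bases before the start. The second Tph1 window held 1, at 36 bases, and the Calca window held 1, at 65 bases. Of 32851 RefSeq windows of the same length, 17.8% held at least 1 half-site and 0.688% held 3 or more. Both strands were searched, so a full palindrome counts as 2 half-sites that overlap. Of the 10 windows available for 8 of the 9 genes, 4 held a half-site, those being both of Tph1, that of Calca and that of Vipr1, and 6 held none. A match of letters is not a bound site, and these libraries do not measure binding.

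The neuromedin U receptor was the receptor with the highest level. Nmur1 (Entrez 14767, chr1:86386242-86389361, minus strand) gave 455 and 317 CPM under vehicle and 440 and 365 CPM under DCA. Both DCA values lay between the vehicle values. The means were 386 ± 98.0 CPM (SD, n = 2) and 402 ± 53.4 CPM, and the log2 fold change was 0.06 with a standard error of 0.29 (unadjusted p = 0.824, edgeR). The limma interval from -0.51 to 0.66 allows a change of that size in either direction. Its ligands were at or near 0, with Nmu at 0 counts in 3 libraries and 10 counts in DCA replicate 2 and Nms at 0 counts in all 4.

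The VIP receptors were split. Vipr1 (Entrez 22354, chr9:121642716-121672954) had 0 counts throughout, and the limit of 3 counts puts it at or below 0.0125 to 0.115 CPM. Vipr2 (Entrez 22355, chr12:116077420-116148637) gave 17.3 and 7.33 CPM under vehicle and 15.2 and 7.60 CPM under DCA. Replicate 1 was the higher library in both treatments. Its log2 fold change was -0.11 with a standard error of 0.73 (unadjusted p = 0.889, edgeR), and the limma interval from -1.70 to 1.57 is wide. Vip itself had 0 counts in all 4 libraries, and the gene for the related peptide PACAP, Adcyap1, had 1 count in DCA replicate 2 alone. Vipr2 overlaps 2 other annotated genes, Gm20658 and Gm46383, and the strand setting of the counting is not given in the sources used here, so its counts may include theirs.

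The CGRP receptor needs CALCRL with RAMP1. Calcrl (Entrez 54598, chr2:84330626-84425405, minus strand) gave 10.6 and 6.11 CPM under vehicle and 12.96 and 4.20 CPM under DCA. The DCA libraries lay on both sides of the vehicle libraries, and the log2 fold change was 0.04 with a standard error of 0.79 (unadjusted p = 0.970, edgeR). Its limma interval ran from -1.89 to 1.71. Ramp1 (Entrez 51801, chr1:91179822-91225196) had 0 counts in both vehicle libraries, 485 counts in DCA replicate 1 and 145 counts in DCA replicate 2, or 15.0 and 0.602 CPM. The 2 DCA libraries were themselves far apart. Against a floor of 3 counts per vehicle library, the mean with DCA was at least 79.4-fold higher, at least 153-fold for DCA replicate 1 alone and at least 6.13-fold for DCA replicate 2 alone (unadjusted p = 0.0133, edgeR). Both parts of the CGRP receptor were therefore counted in the DCA libraries, and only Calcrl in the vehicle libraries. Other genes had counts in 1 library of a treatment and 0 in the other, such as Stmn2 (338 and 0 with vehicle) and Ramp3 (0 and 1532 with DCA). The 0 counts of Ramp1 therefore do not show its absence with vehicle, and the bounds above cover counting error only.

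Ramp3 (Entrez 56089, chr11:6658506-6677478) had 31 and 48 counts with vehicle, 0 counts in DCA replicate 1 and 1532 counts in DCA replicate 2. The lowest and the highest libraries were both DCA libraries, at 0 and 6.37 CPM, with the vehicle libraries at 0.847 and 1.83 CPM. The fitted log2 fold change was 1.25 (unadjusted p = 0.643, edgeR), and it turned negative without DCA replicate 2. The difference in mean log2(CPM + 1) was 0.25 with a standard error of 1.47. Ramp3 overlaps the annotated gene Gm11978. Ramp2, which pairs with CALCRL for adrenomedullin, gave 2.30 and 0 CPM under vehicle and 2.29 and 2.24 CPM under DCA (84, 0, 74 and 539 counts). Each of the 3 RAMP genes was thus at 0 in at least 1 library. Calcr, the calcitonin receptor that also pairs with RAMPs, had 0 counts in all 4 libraries.

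**Figure D3:**
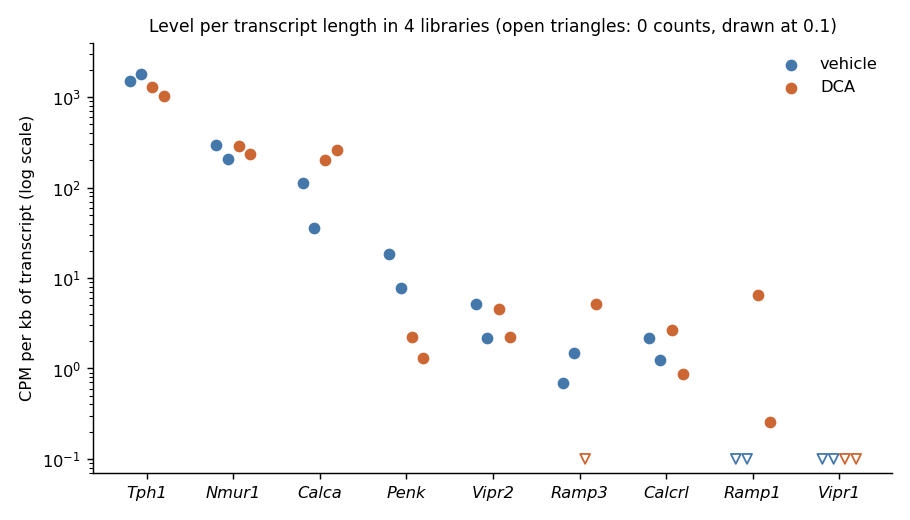
The vertical axis is CPM per kilobase of the longest protein-coding transcript on a log scale, with a point per library for each of the 9 genes in order of level, and open triangles at 0.1 for libraries with 0 counts. Tph1 stands above all others in every library, and the 5 genes from Vipr2 to Vipr1 lie below 10 in every library.

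Divided by the length of the longest protein-coding transcript, the mean levels in CPM per kilobase were 1660 with vehicle and 1161 with DCA for Tph1, 252 and 262 for Nmur1, 73.6 and 231 for Calca, and 13.1 and 1.76 for Penk. They were 3.64 and 3.37 for Vipr2, 1.09 and 2.58 for Ramp3, 1.71 and 1.76 for Calcrl, 0 and 3.35 for Ramp1 and 0 in both for Vipr1. Of neighbours in that order, Tph1 and Nmur1, and Calca and Penk, did not overlap in either treatment. Ramp3 and Calcrl overlapped in both. Nmur1 and Calca, Penk and Vipr2, Vipr2 and Ramp3, and Calcrl and Ramp1 overlapped with DCA but not with vehicle.

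Leaving out single libraries changed the size of the Calca difference most with the vehicle libraries. Its log2 fold change was 2.67 without vehicle replicate 1, where it passed the adjusted threshold (adjusted p = 0.0328, edgeR's quasi-likelihood test), and 1.05 without vehicle replicate 2. Penk ranged from -3.39 to -2.19 and Tph1 from -0.68 to -0.38 over the 4 omissions. Nmur1 ranged from -0.18 to 0.32 and changed direction. The unadjusted p of edgeR's test stayed under 0.05 for Calca except without DCA replicate 2, for Penk except without vehicle replicate 1 or DCA replicate 2, and for Ramp1 except without DCA replicate 1. For Tph1 that held only when vehicle replicate 1 was left out. When 1 treatment keeps a single library, that library is assumed to vary as the others do.

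**Figure D4:**
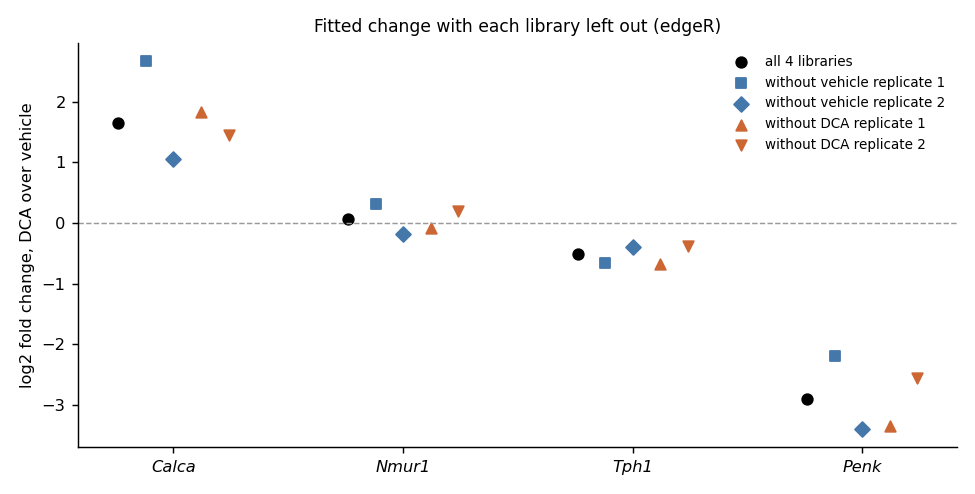
The vertical axis is the fitted log2 fold change, DCA over vehicle, from edgeR for 4 genes, with all 4 libraries (black circle) and with each library left out. Calca stays above 0, between 1.05 and 2.67, Penk and Tph1 stay below 0, and Nmur1 lies on both sides of 0.

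The enzymes around these genes were present unevenly. Serotonin synthesis needs aromatic amino acid decarboxylase after TPH1, and its gene Ddc had 297 counts in vehicle replicate 1, 11 in DCA replicate 2 and 0 in the other 2 libraries. Gch1, the first enzyme for tetrahydrobiopterin, the cofactor of TPH1, gave 180 and 139 CPM under vehicle and 151 and 149 CPM under DCA, and Pts and Qdpr of the same cofactor pathway were also detected in every library. Slc18a2, the vesicular monoamine transporter, gave 9.21 and 23.1 CPM under vehicle and 2.78 and 17.1 CPM under DCA. The serotonin transporter Slc6a4 and the degrading enzyme Maoa had counts in DCA replicate 2 alone, the deepest library, 38 and 316 (0.158 and 1.31 CPM). Tph2, the neuronal hydroxylase, had 0 counts throughout.

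Among peptide processing genes, the prohormone convertase Pcsk1 gave 68.5 and 7.52 CPM under vehicle and 31.0 and 23.9 CPM under DCA, and carboxypeptidase E (Cpe) gave 50.8 and 13.7 CPM under vehicle and 10.0 and 19.7 CPM under DCA. Both genes, like Calca and Penk, were higher in vehicle replicate 1 than in vehicle replicate 2. Pam, the enzyme that amidates CGRP, gave 0.792 and 0.0763 CPM under vehicle and 1.05 and 0.731 CPM under DCA (29, 2, 34 and 176 counts). Among opioid receptor genes, Oprm1 had between 1 and 20 counts, at most 0.0831 CPM, Oprd1 had 1 count in DCA replicate 2 alone, and Oprk1 had none. The enkephalin-degrading enzyme gene Mme had none either. These genes were picked for their roles after their values were known.

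The wider pathways were read from 9 lists of 252 other genes in the table, also chosen with earlier results known. Of these genes, 71 had no count in any library and 86 were tested. None passed the adjusted threshold of edgeR's test, 6 (6.98%) had an unadjusted p under 0.05, beside 4.27% of all genes, a number that went to 0 without either DCA library and to 15 and 16 without vehicle replicates 1 and 2, and 27 (31.4%) did not overlap between treatments, beside 33.3%. Their median log2 fold change was -0.07. Of 39 other neuropeptide receptor genes, only Ramp2 was tested, and of 31 other peptide genes, Grp and Nmb were. Nmb, for neuromedin B, gave 9.21 and 15.5 CPM under vehicle and 17.2 and 35.8 CPM under DCA. Grp, for gastrin-releasing peptide, had 334 counts in vehicle replicate 2 and 0 in the other 3 libraries, so it entered the test through that library alone. DESeq2 called Grp (adjusted p = 2.31e-12), a call that rests on the same library. Of 16 processing and degradation genes tested, led by Furin, Ide and Cpd, 0 had an unadjusted p under 0.05, and the same held for 10 serotonin genes and 21 genes of Gq and calcium signaling, led by Rgs1, Ppp3r1 and Itpr2.

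Of 24 tested genes of cAMP signaling, 2 were lower with DCA at an unadjusted p under 0.05, where 1.73% of all genes were, and 10 did not overlap, where 33.3% of all genes did not. Prkacb, a catalytic subunit of the cAMP-dependent kinase, gave 75.5 and 86.5 CPM under vehicle and 46.0 and 45.4 CPM under DCA, a log2 fold change of -0.83 with a standard error of 0.10 (unadjusted p = 0.0289, edgeR). Atf1, a partner of CREB, gave 99.2 and 79.9 CPM under vehicle and 53.8 and 54.1 CPM under DCA (log2 fold change -0.73, unadjusted p = 0.0428, edgeR). In each of these 2 genes the DCA libraries lay close together and below both vehicle libraries. The most abundant genes of the list, Prkar1a, Gnas and Gnai2, had log2 fold changes of 0.04, 0.30 and 0.22.

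Chrne, an acetylcholine receptor subunit, and Lynx1, a modulator of such receptors, were higher with DCA at that level. Like Ramp1, both had 0 counts in each vehicle library and entered the test only through DCA. Against the floor of 3 counts per vehicle library they were at least 26.4-fold and 23.2-fold higher, bounds that cover counting error only. Of the catecholamine genes tested, Grk2 and Arrb2 were among the most abundant. Of the 4 GABA and glutamate genes tested, which include Slc6a13 and Gabbr1, none had an unadjusted p under 0.05.

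**Figure D5:**
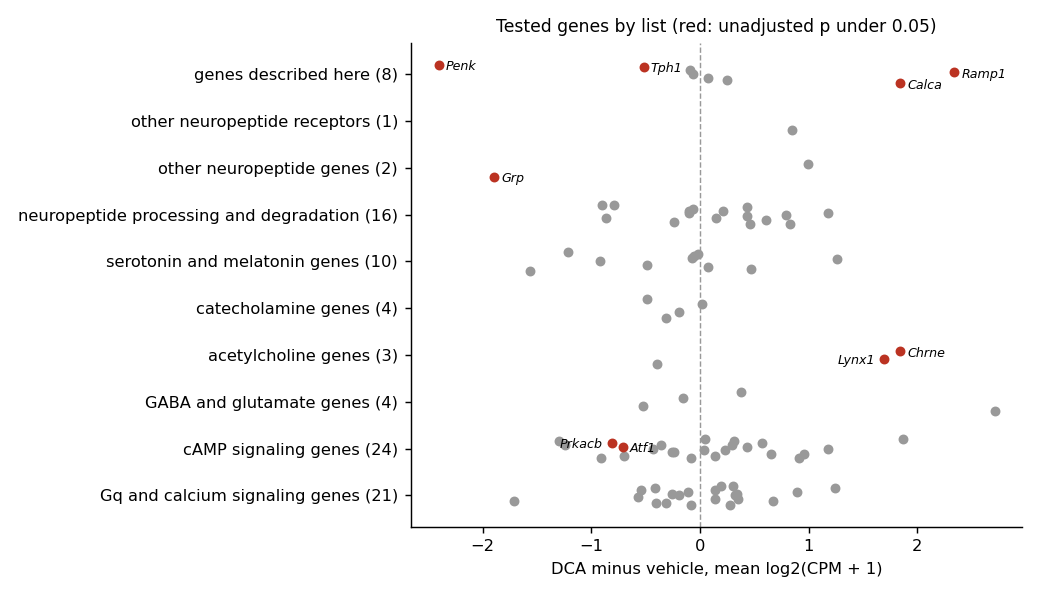
The horizontal axis is the difference in mean log2(CPM + 1), DCA minus vehicle, with a point for each tested gene of the 9 genes described and of the 9 other lists, apart from 1 gene left out (number drawn in parentheses), and red points for an unadjusted p under 0.05 by edgeR. Of the genes drawn from the other lists, Grp, Prkacb and Atf1 are red on the lower side and Chrne and Lynx1 on the higher side.

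Other cells that express these genes were looked for through their markers. Tph1 is also made by enterochromaffin cells and mast cells. Of 10 enteroendocrine markers, 7 were at 0 in every library, Chga among them, and the list summed to at most 0.109 CPM. Of 12 mast cell and basophil markers, 7 were at 0, including Fcer1a, Ms4a2, Hdc, Tpsb2 and Cma1, and without Kit, which ILC2s can also express, the list summed to 6.01 and 9.20 CPM under vehicle and 4.70 and 0.378 CPM under DCA. Tpsab1, a mast cell tryptase, gave 2.51 and 4.58 CPM under vehicle and 0 counts in both DCA libraries (unadjusted p = 0.0138, edgeR). Like Tph1 it was lower with DCA, but Tpsab1 entered the test only through its vehicle counts and had to differ. Mcpt8 had 121 to 146 counts in 3 libraries and 0 in DCA replicate 2. The mast cell marker Cpa3 went the other way, with 0 counts in both vehicle libraries and 0.186 and 0.349 CPM under DCA (6 and 84 counts). Mcpt4 had 7 counts in DCA replicate 2 alone. Kit gave 359 and 279 CPM under vehicle and 297 and 158 CPM under DCA. The part of such cells in the Tph1 values was not tested.

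Calca and Penk are also neuronal genes. Of 10 enteric neuron markers, 4 were at 0, including Snap25 and Syt1, and the list summed to 41.9 and 33.0 CPM under vehicle and 89.5 and 44.1 CPM under DCA, mostly from Uchl1 and Stmn2. Their part in the Calca and Penk values was not tested. Of 6 glial markers, 2 were at 0, including Sox10, and the list summed to between 0.115 and 2.78 CPM. Calcrl and Ramp3 are endothelial genes as well. Of 8 endothelial markers, 4 were at 0, namely Kdr, Tek, Cldn5 and Vwf, and the list summed to 22.1 and 10.8 CPM under vehicle and 14.0 and 10.8 CPM under DCA. Most of this was Pecam1 and Egfl7, and Egfl7, which lies in the range of Calcrl, gave 10.6 and 6.99 CPM under vehicle and 10.3 and 4.33 CPM under DCA. The part of Egfl7 and Pecam1 expressing cells in the Calcrl values was not tested.

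The genes whose levels over the 4 libraries were most like those of Tph1, among 21 genes with a mean within 2-fold of it, were Eef1a1, Hspa8 and Ldha, at Euclidean distances of 0.31, 0.52 and 0.53 between centred log2(CPM + 1) values. With 4 libraries this likeness is a description only.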

How the data were processed

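The authors' deposited RNA-Seq table of cultured large intestinal ILC2s has 2 vehicle and 2 DCA libraries, assigned by their titles. SMART-Seq full-length cDNA was sequenced as read pairs, which the authors trimmed (Cutadapt 1.9) before alignment to mm10 (HISAT2 2.2.1). The counting tool, its annotation and its strand setting are not given in the sources used here. The deposited values are whole-number counts per gene, not the FPKM of the table's name, and 1275 of its 27179 rows have no symbol. They stayed in library sizes and tests.

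Counts were scaled with TMM and tested with edgeR 4.0.16 in R 4.3.3 (quasi-likelihood, two-sided, Benjamini-Hochberg adjustment over 11184 genes that averaged 1 CPM or more). Standard errors come from the spread between libraries within treatments, and 95% intervals from limma 3.58.1. Both are of the difference in mean log2(CPM + 1), not of edgeR's fold change. The intervals, like edgeR's test, take part of a gene's variance from other genes, and the standard errors do not. A gene at 0 in a treatment was set to 3 counts per library for a lower bound. Levels between genes were divided by the longest protein-coding transcript in GENCODE vM21, in place of the planned RefSeq length, which the reference gives only as a genomic span. Alternatives were DESeq2 1.42.0, which the study's methods name, limma with pseudocounts of 1 and 0.1, other scalings and filters, DCA replicate 2 thinned to 31503313 counts, a replicate block and leaving out each library. The test was checked on simulated counts.

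The members and gene lists were chosen with earlier results of these data known. Named beside the members are, per list, the 3 genes with the highest mean CPM and those with an unadjusted p under 0.05, the 3 nearest to the most abundant member, and markers that touch a member. The human samples of the study were not analysed here, and some genes that the rule names are not reported here.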

Additional observations from a re-analysis of the deposited data

How the results depend on the processing

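The 4 non-overlapping members stayed non-overlapping under every scaling tried. Calca and Penk kept an unadjusted p under 0.05 in 10 of 10 alternatives with all 4 libraries, Ramp1 in 7 of 9 and Tph1 in 6 of 10. With 2 libraries per treatment a single library decides several values, and DCA replicate 2 alone holds 244165712 counts. Depth limits what a count of 0 can show, which for Vipr1 is a level of up to 0.0125 to 0.115 CPM.

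Genes called at the adjusted threshold numbered 36 without the filter and 126 by DESeq2, and 0 to 28 with a library left out (28 without vehicle replicate 1). Genes at an unadjusted p under 0.05 numbered 847 without the filter, 784 by DESeq2 and 120 to 1500 with a library left out. Of the members, 1 was called without the filter (Calca, adjusted p = 0.000192, edgeR), 1 by DESeq2 (Ramp1, adjusted p = 0.00368) and 0 to 1 with a library left out (Calca, without vehicle replicate 1). At an unadjusted p under 0.05, 2 members passed with limma at either pseudocount, and 1 to 3 with a library left out (1 without DCA replicate 2, 2 without DCA replicate 1). In the other pathway lists, 2 genes passed with a mean of at least 5 CPM, 3 with limma at a pseudocount of 1 and 0 to 16 with a library left out (0 without either DCA library, 15 and 16 without vehicle replicates 1 and 2). With merged exon length 2 members, and with coding length 4 members, changed place in the order of levels. The cause was not tested.

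Directions reversed for Nmur1, Vipr2, Calcrl and Ramp3. With a library left out, log2 fold changes ran from -0.18 to 0.32 for Nmur1 (-0.18 if vehicle replicate 2 is dropped, -0.09 if DCA replicate 1 is), from -0.70 to 0.61 for Vipr2 (0.61 if vehicle replicate 1 is dropped, 0.30 if DCA replicate 2 is), from -8.41 to 2.23 for Ramp3 (-8.41 if DCA replicate 2 is dropped), and from -0.995 to 0.63 for Calcrl (-0.31 if vehicle replicate 2 is dropped, -0.995 if DCA replicate 1 is). With limma, Ramp3 was -0.75 at a pseudocount of 0.1, and Calcrl was -0.0915 at 1 and -0.12 at 0.1. With the replicate block, Ramp3 was -1.97 and Calcrl -0.12, 4 members and 450 genes had an unadjusted p under 0.05, and 0 genes passed the adjusted threshold. Deviations of same-numbered libraries correlated at 0.0197 across genes. With 1 difference per treatment, this value cannot show whether same-numbered libraries came from the same mice or cultures. Grp had no counts left without vehicle replicate 2.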
